A study of Homo sapiens with 12 samples.

Results

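Transcripts of the p53 pathway were followed through RIP-seq peak lists made in HepG2 cells for METTL16, eIF3a and eIF3b. The 9 genes were MDM2, MDM4, PPM1D, CDKN1A, POLH, BBC3, BAX, SESN1 and SESN2, out of 10830 gene names with a peak in any list, and a peak was taken as theirs when the deposited list named the gene. They held 180 of the 101848 peaks summed over the lists. POLH was chosen by its place among the strongest genes common to these lists, so its presence and its fold enrichment are descriptions only. The other 8 are known genes of the pathway.

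In RIP-seq an antibody pulls down a protein together with its RNA, and this RNA is sequenced beside an input kept from the same lysate. HepG2 is a human liver cancer line in common use, and 12 samples of it were sequenced: 2 RIP samples and 2 inputs for each of METTL16, an RNA methyltransferase, and eIF3a and eIF3b, subunits of the translation initiation factor eIF3. All cells stably overexpressed one Flag-tagged protein (METTL16, eIF3a or eIF3b) and were UV cross-linked, so each protein was measured above its native level and no untagged or IgG list was used here. The labels name a Flag antibody for METTL16 and eIF3b but an antibody against eIF3a for the eIF3a RIP, whereas the deposited lists of all 3 proteins carry flag in their names. Which antibody the eIF3a lists come from is therefore unsettled, and if the labels hold, antibody and protein cannot be told apart for eIF3a.

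The 6 lists held 12921 to 21733 peaks, with a median width of 180 to 210 bases and a median fold enrichment of 2.73 to 3.4. The METTL16 lists (13199 and 13136 peaks) and eIF3a replicate 2 (12921) were shorter than the eIF3b lists (20832 and 20027) and eIF3a replicate 1 (21733). The read depth behind a peak is unknown, and a transcript without a peak may still be bound or expressed. Of 11 hepatocyte marker genes, 9 had a peak in at least 1 list, beside 10756 of all 20046 annotated protein coding genes. SERPINA1 and HNF4A had one in all 6 lists, APOA1, APOA2 and APOB in 5, and FGB in 3. AFP and TF had peaks in the METTL16 lists alone, ALB in METTL16 replicate 2 alone, and APOH and TTR in none.

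p53 is a transcription factor that is kept low by MDM2, a ubiquitin ligase, and by its partner MDM4, and that rises when DNA is damaged. It then switches on genes that stop the cell cycle, such as CDKN1A (p21), that start apoptosis, such as BBC3 (PUMA) and BAX, or that limit stress, such as SESN1 and SESN2. PPM1D (WIP1) is a phosphatase that turns the response off, and POLH is a polymerase that copies past ultraviolet damage. MDM2, MDM4 and POLH share long 3′ UTRs.

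In MDM2, MDM4 and POLH the peak of highest fold in each list overlapped, in whole or in part, 3′ UTR segments that are present more than once in opposite orientation. By p-value this held too, save for POLH in eIF3a replicate 2, where a coding peak came first. Inverted copies can pair with each other within one RNA. The following 30-base pieces of MDM2 are shown because both lie under a peak in all 6 lists. The first line is the mRNA strand of one arm and the second the reverse complement of the other arm, so that bases in capitals are those that could pair. Sequences were read from GRCh38.
MDM2 arm, chr12:68843217-68843246: TAGCTGAAGTATTATgAACTCCAAATAATG
MDM2 partner, chr12:68843774-68843803: TAGCTGAAGTATTATcAACTCCAAATAATG
The pieces matched at 29 of 30 bases, and they were 527 bases apart.

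Many MDM4 and POLH segments also resemble 7SL RNA, the RNA of the signal recognition particle from which Alu elements derive. The canonical 3′ UTR of MDM4 held 11 matches to 7SL, 3 sense and 8 antisense, and that of POLH held 11, 9 sense and 2 antisense. MDM2 had 1 match, antisense, which lay under a peak in 1 list (eIF3b replicate 2), and its inverted arms held no match. PPM1D had 1 in its canonical 3′ UTR, under no peak, and the other members had none there. A match to 7SL is not particular to these genes: 5449 of the 10776 genes searched had one in their exons.

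Of the 9 members, 6 had a peak in all 6 lists (MDM2, MDM4, PPM1D, CDKN1A, POLH and BBC3), beside 25.2% of all genes with a peak in any list. A gene was called bound when both replicates of a protein carried a peak. METTL16 bound 7 of 9, the same 6 and BAX, beside 42.6% of all genes. eIF3a bound 6 of 9, beside 42.4%. eIF3b bound 8 of 9, all but SESN2, beside 60.0%. SESN1 and SESN2 each had a peak in 3 lists. POLH is in each of these counts by the way it was chosen, so its part in them is no result. As the members were chosen with these lists known, the counts are descriptions.

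MDM2 lies on chromosome 12 (68808177 to 68845544, plus strand), and its canonical mRNA of 7490 bases has a 3′ UTR of 5695. It had 6 and 4 peaks in the METTL16 lists, 7 and 10 in eIF3a and 10 and 10 in eIF3b. METTL16 replicates 1 and 2 reached a highest fold enrichment of 12 and 5.09, against 12.1 and 3.74 in eIF3a, and 14.2 and 11.6 in eIF3b. In every list it belonged to the same peak, which spanned at its narrowest chr12:68843151-68843390 in the last exon, exon 11. The replicates overlapped between proteins, and the second replicate of METTL16 and of eIF3a was the lowest. By its smallest p-value MDM2 ranked 75 and 564 in METTL16, 22 and 540 in eIF3a, and 74 and 50 in eIF3b among the 5226 to 8166 genes of a list. A second shared 3′ UTR peak had its common core at chr12:68843719-68843869, and these 2 cores hold the inverted arms printed above.

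Outside the 3′ UTR, a part of MDM2 coding exons 10 and 11 was under a peak in all 6 lists (chr12:68839274-68839382, 109 bases, and 12 bases of exon 10). The coding bases under peaks were 361 and 181 in METTL16, 947 and 720 in eIF3a, and 596 and 918 in eIF3b. Both METTL16 values were below all 4 eIF3 values. The 3′ UTR bases under peaks went the same way, with 721 and 601 in METTL16, 1363 and 1353 in eIF3a, and 1263 and 1725 in eIF3b. The lower METTL16 values were thus not particular to the coding exons. These patterns were picked out after their values were seen, and no share over all genes is given for either. In all exonic bases, eIF3a covered more than METTL16 without overlap of replicates for 23.4% of genes, and eIF3b for 39.0%. A peak in the 5′ UTR of exon 1 was present in 5 lists and missing in METTL16 replicate 2. The gene CPM, on the opposite strand, shares 133 exonic bases with MDM2, all of them under an MDM2 peak in at least 1 list. Another annotated gene on the opposite strand shares 785, of which 336 were under such a peak. A further gene on the same strand shares 439, all of them under a peak, and strand cannot separate these. Whether strand was used in peak calling was not given in the sources used here.

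MDM4 lies on chromosome 1 (204516379 to 204558120, plus strand), with 8438 of its 10050 canonical bases in the 3′ UTR. Its highest fold enrichment was 230.0 and 9.79 in METTL16, 58.3 and 55.1 in eIF3a, and 117.0 and 22.7 in eIF3b. The METTL16 replicates were thus the highest and the lowest of the 6 lists. In exon 11, 3 stretches were under a peak in every list, chr1:204552032-204552512 (481 bases), chr1:204555661-204555901 (241 bases) and chr1:204556441-204556681 (241 bases). They are 963 bases in all, which is every base covered in METTL16 replicate 2.

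Both the coding part and the 3′ UTR of MDM4 separated METTL16 from eIF3. No coding base was under a peak in either METTL16 list, whereas 1097 and 722 were in eIF3a and 841 and 1126 in eIF3b. In eIF3a replicate 1 a peak joined parts of exons 4 to 11 (871 bases, fold 5.49), in eIF3b replicate 1 exons 4 to 11 (841 bases, fold 3.66), and in eIF3b replicate 2 exons 2 to 11 (1051 bases, fold 5.43). In eIF3a replicate 2 the same stretch was 2 peaks of 391 and 331 bases, at folds of 2.66 and 2.18. The 3′ UTR bases under peaks were also fewer in METTL16 (1535 and 963) than in eIF3a (2316 and 2229) and eIF3b (2285 and 2286). Both patterns were picked out after their values were seen, and no share over all genes is given for either. Over all genes, coding sequence held 66.75% of the peak bases of METTL16, 61.65% of those of eIF3a and 63.65% of those of eIF3b. The METTL16 lists also covered fewer exonic bases over all genes (3214692 and 3392619) than the eIF3a lists (5293396 and 4704224) and the eIF3b lists (6320283 and 5411731). The part of this in the MDM4 patterns was not tested.

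POLH lies on chromosome 6 (43576185 to 43620523, plus strand) and has a 3′ UTR of 5966 of its 8368 canonical bases. The highest fold enrichment was 71.5 and 38.1 in METTL16, 24.8 and 25.7 in eIF3a, and 106.0 and 28.6 in eIF3b. These put POLH at the 95.6th to 99.6th percentile of genes by fold in each list, while by p-value it ranked only 1385 to 2561. In 5 lists all POLH peak bases lay in the 3′ UTR. The exception was eIF3a replicate 2, where a peak of 719 bases at fold 5.72 joined coding exons 3 to 10 and made up 35.7% of the covered bases. Stretches of 91, 91 and 151 bases were under a peak in every list, all in exon 11 and all on inverted-repeat bases. GTPBP2, on the opposite strand, has peaks of its own in all 6 lists, but only 4 of the exonic bases it shares with POLH were under a POLH peak.

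**Figure D1:**
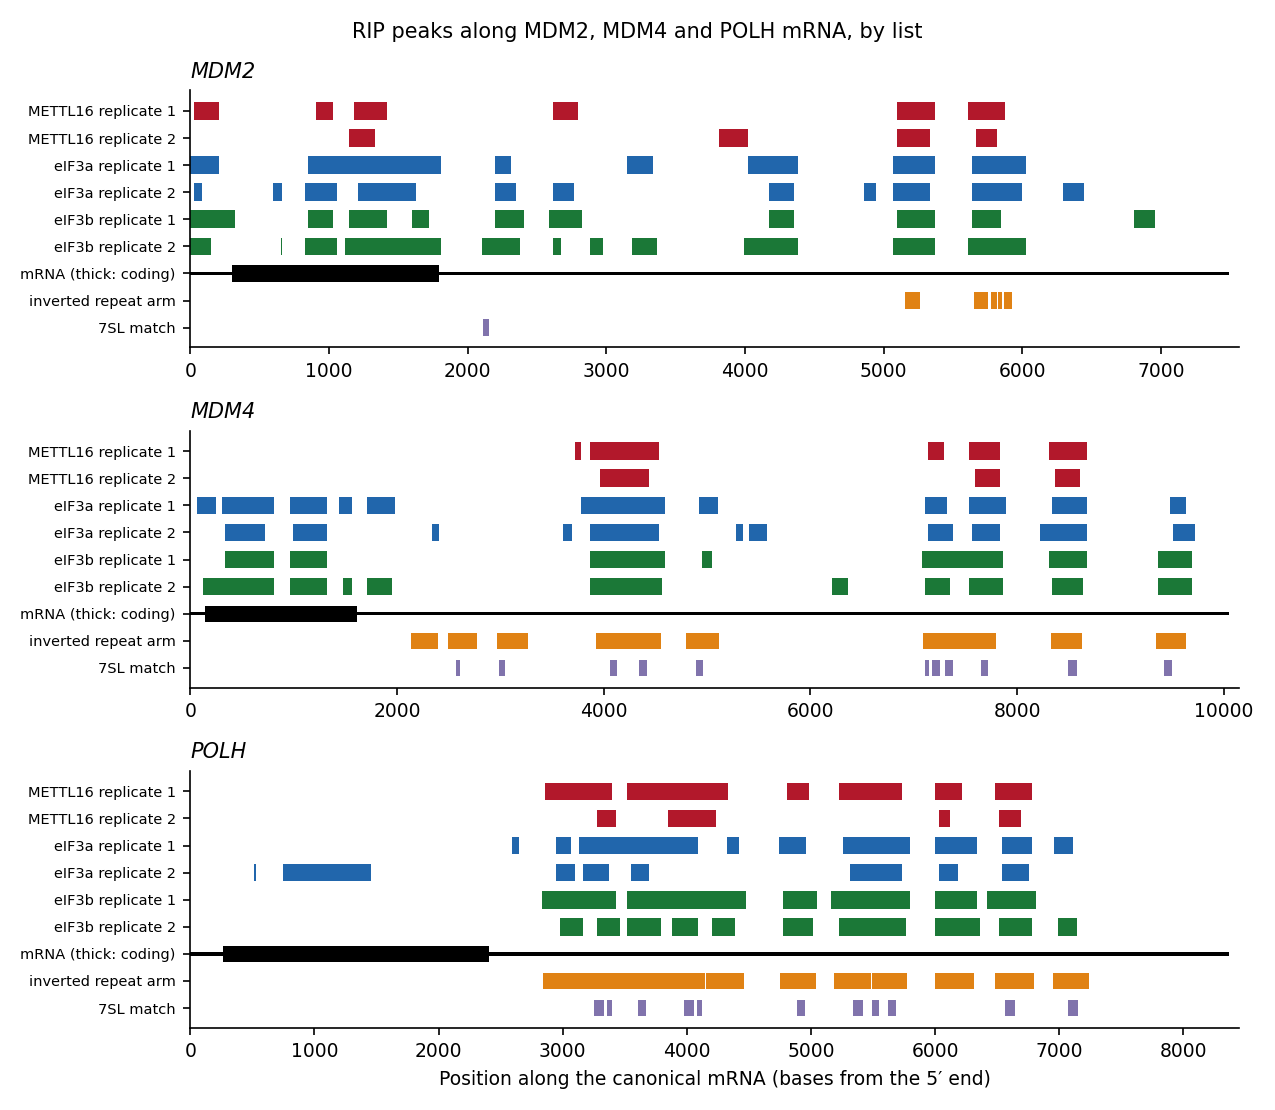
Peaks along the canonical mRNA of MDM2, MDM4 and POLH, in bases from the 5′ end, 1 row per list, above the mRNA (coding part thick), the arms of inverted repeats and the matches to 7SL RNA. METTL16 lists have no peak in the MDM4 coding part, and 40 of 41 POLH 3′ UTR peaks touch an inverted-repeat arm.

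Inverted arms were searched for in the 3′ UTR of every gene, with each UTR compared with its own reverse complement. MDM2 had 4 pairs of arms of 33 to 104 bases at 90.909% to 95.652% identity. MDM4 had 23 pairs of 53 to 724 bases at 65.591% to 84.3%, and POLH 30 pairs of 41 to 719 bases at 69.759% to 85.159%. The longest in MDM4 and POLH (724 and 719 bases) were single stretches that matched their own reverse complement. Each such stretch was counted whole, so its arms are shorter than its length and any bases between them count as arm bases. The arms took up 6.08% of the MDM2 3′ UTR, 36.8% in MDM4 and 56.7% in POLH. None was found in the other 6 members. Over all genes with a peak in any list 10.3% had such a pair, and over genes with a peak in all 6 lists 14.2% did.

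In each of the 3 genes and each of the 6 lists, the inverted bases were under a peak more often than the rest of the same 3′ UTR. In MDM2 the share under a peak was 69.4% to 100% for the arms and 6.75% to 25.8% for the rest. In MDM4 it was 29.9% to 64.7% against 0.619% to 12.4%, and in POLH 23.9% to 88.2% against 0.193% to 7.7%. METTL16 replicate 2 was the lowest list in all 3 genes on both measures. Of 108 peaks lying mostly in these 3′ UTRs, 81 touched an arm, 12 of 31 in MDM2, 29 of 36 in MDM4 and 40 of 41 in POLH.

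The same direction was seen beyond the p53 genes when bases were pooled. Over the 588 to 930 other genes per list that had an inverted pair and a peak, 16.3% to 29.5% of inverted bases and 2.49% to 8.81% of other 3′ UTR bases were under a peak. Gene by gene, the arms had the higher share in 38.6% to 49.8% of those genes. The pooled direction is therefore not particular to these 3 members, whereas in each list most of the other genes, taken singly, did not show it. Genes with equal shares were not set apart from those with a lower share in the arms. How reads that map to several repeats were handled was not given in the sources used here, and its part in these values was not tested.

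**Figure D2:**
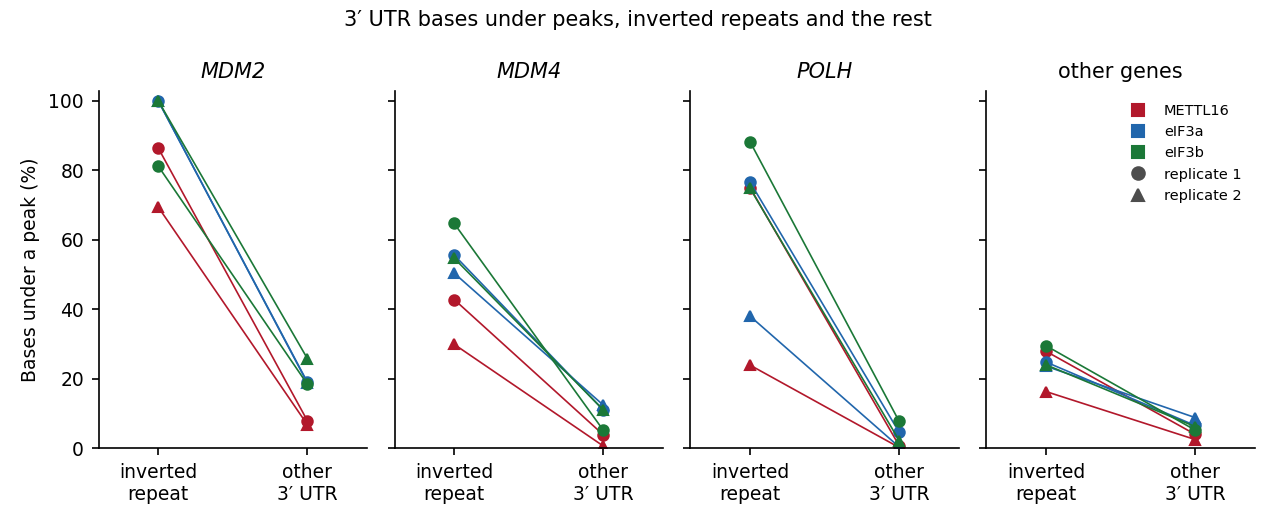
Percent of 3′ UTR bases under a peak, for inverted-repeat arms and for the rest of the 3′ UTR, in MDM2, MDM4, POLH and pooled over the other genes with an inverted pair and a peak; each line is 1 list. All 6 lines fall from left to right in every panel, from 16.3% to 29.5% down to 2.49% to 8.81% in the other genes.

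CDKN1A, the inhibitor that halts the cell cycle downstream of p53, had its strongest peak over the coding sequence in 5 of 6 lists. It lies on chromosome 6 (36676460 to 36687337, plus strand), and its canonical mRNA has 495 coding bases. The peak began at chr6:36676490 or, in eIF3a replicate 1, at chr6:36676460 and covered 494 or 495 coding bases and the bases around the start codon. Its first block lay in an annotated exon that is not part of the canonical mRNA, and canonical exon 1 was not under it. The start of the coding sequence, with the start codon in capitals, lay under a peak in these 5 lists.
CDKN1A start, chr6:36684102-36684131: ATGtcagaaccggctggggatgtccgtcag
Its fold enrichment was 4.09 and 6.8 in METTL16, 14.9 in eIF3a replicate 1, and 6.75 and 3.46 in eIF3b. eIF3a replicate 2 lacked it and held only a 3′ UTR peak of 119 bases at fold 1.72, so the eIF3a replicates covered 920 and 119 bases of the gene, while the other 4 lists covered 802 to 1127. That 3′ UTR site, chr6:36686362-36686480, was under a peak in all 6 lists, with folds of 2.83 and 3.52 in METTL16, 3.01 and 1.72 in eIF3a, and 2.91 and 1.71 in eIF3b.

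BBC3, a BH3-only activator of apoptosis, lies on chromosome 19 (47220822 to 47232766, minus strand). A 3′ UTR peak was present in every list, with 420 bases (chr19:47221212-47221631) common to all. Its fold was 5.66 and 5.57 in METTL16, 4.13 and 2.23 in eIF3a, and 8.24 and 5.22 in eIF3b. In METTL16 replicate 2 a further peak of 91 bases near the 3′ end reached 11.9, the highest value of the gene. Its p-value from exomePeak was 0.00017, against 4e-40 for the shared 3′ UTR peak in that list. Coding bases under peaks were 330 and 241 in METTL16, 271 and 0 in eIF3a, and 495 and 211 in eIF3b. As with CDKN1A, eIF3a replicate 2 had the 3′ UTR peak alone.

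BAX, a pore-forming member of the BCL-2 family, had no peak in the eIF3a lists but had peaks in both replicates of METTL16 and of eIF3b. It lies on chromosome 19 (48954815 to 48961798, plus strand). The covered bases were 505 and 415 in METTL16, 0 and 0 in eIF3a, and 593 and 416 in eIF3b. Most were coding (82.2% to 90.6% of them per list), and 208 bases of exons 2 to 4 were common to the 4 lists. The folds were low: the highest per list was 1.96 and 2.06 in METTL16 and 4.35 and 1.4 in eIF3b.

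PPM1D was in every list but at no common site. It lies on chromosome 17 (60600193 to 60666280, plus strand), and its 7 peaks were coding save 11 bases. METTL16 replicate 1 had a peak in exons 4 to 5 (150 bases, fold 1.99) and replicate 2 in exons 2 to 3 (180 bases, fold 2.0). eIF3b replicate 1 had it in exon 1 (209 bases, fold 2.85) and replicate 2 in exon 6 (180 bases, fold 2.19). The replicates of METTL16 thus shared no base, nor did those of eIF3b. The eIF3a replicates shared exons 2 and 3, and replicate 2 held the longest and strongest peak of the gene, 658 bases in exons 2 to 5 at fold 4.97.

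The sestrins, which restrain growth signalling under stress, were sparse. SESN1, on chromosome 6, had 1 peak in METTL16 replicate 1 (151 bases, fold 2.78) and 1 in eIF3b replicate 1 (180 bases, fold 3.01), both in coding exons 5 to 6. Its peak in eIF3b replicate 2 lay elsewhere, in the 5′ UTR (91 bases, fold 6.85), so eIF3b was counted as binding SESN1 without a shared base. SESN2, on chromosome 1, had a peak in replicate 1 of each protein and in replicate 2 of none, with 330, 151 and 810 covered bases for METTL16, eIF3a and eIF3b. The 3 lists shared 31 bases of exon 2.

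**Figure D3:**
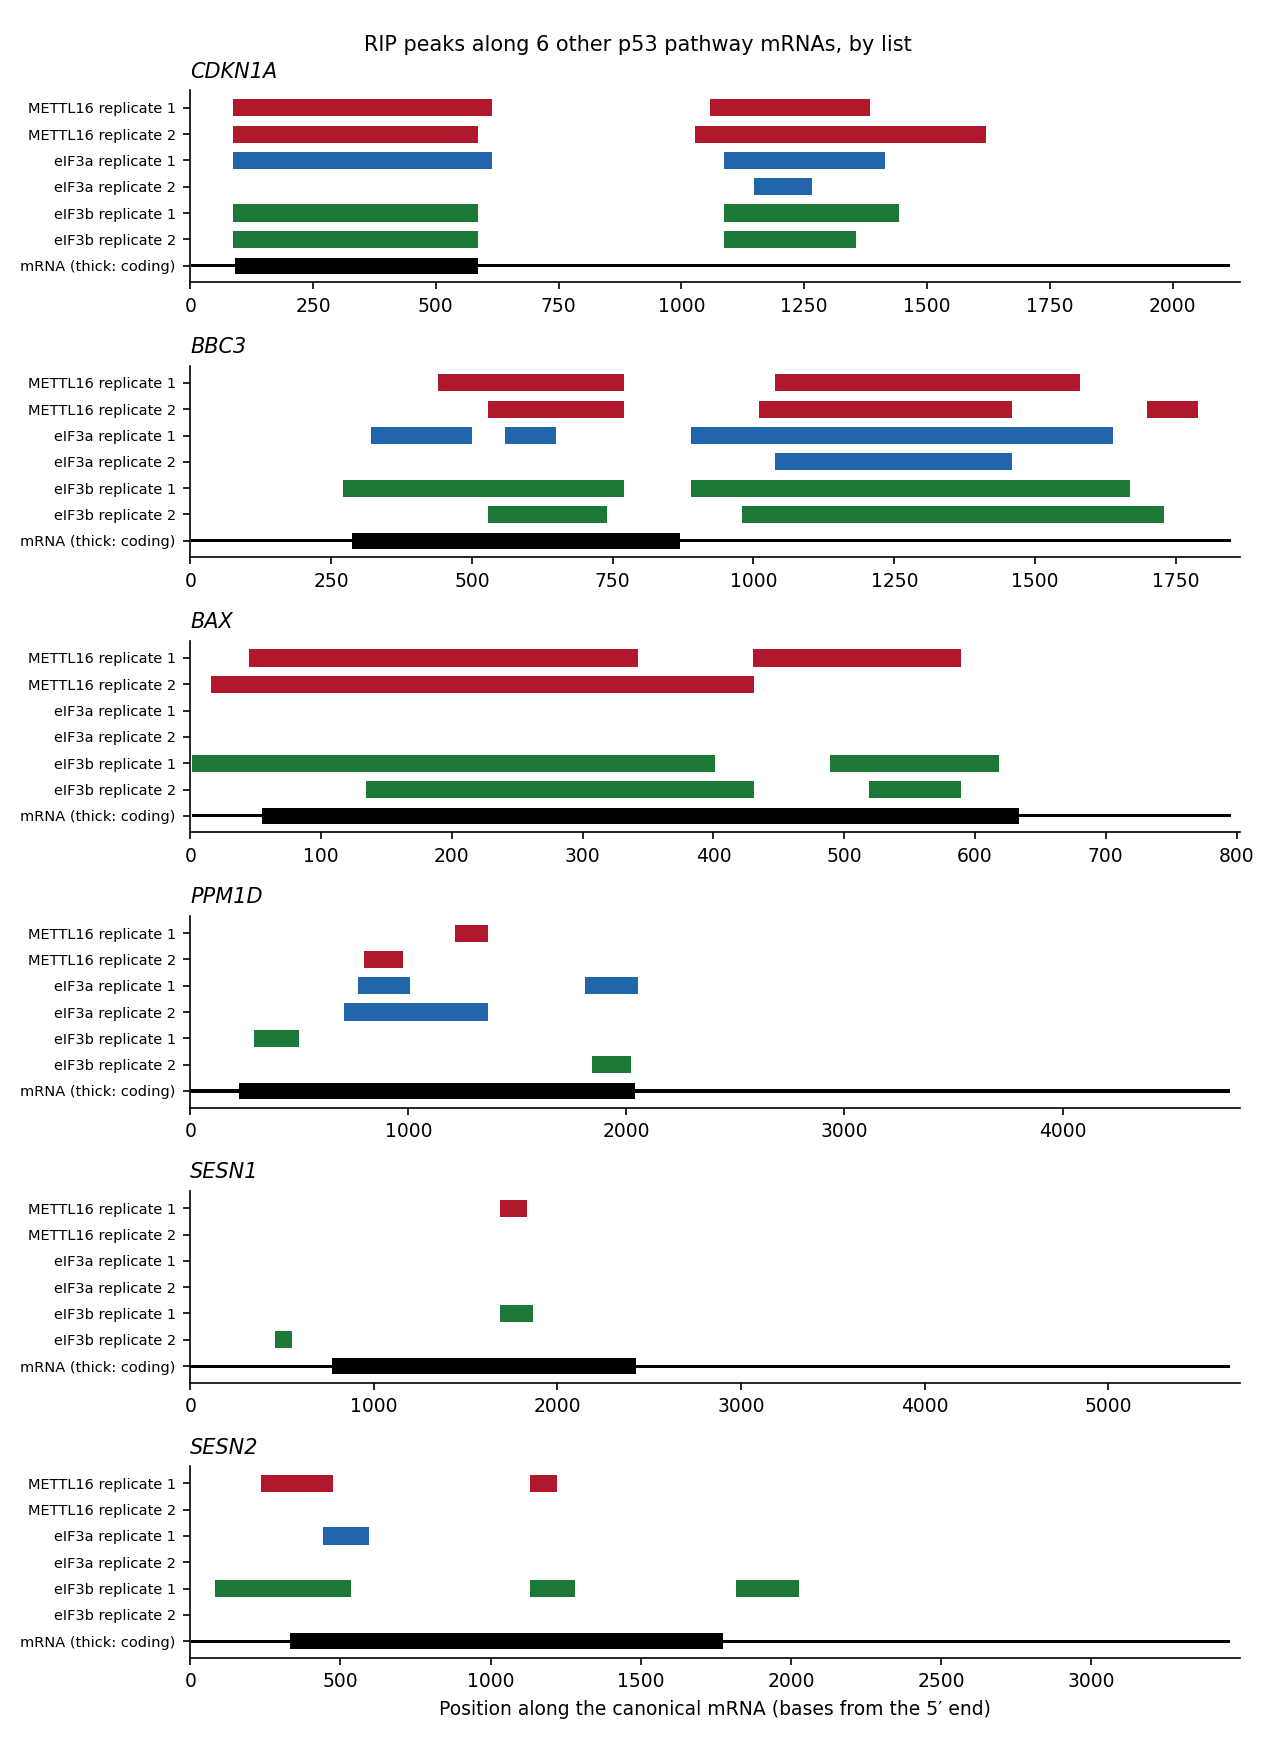
Peaks along the canonical mRNA of CDKN1A, BBC3, BAX, PPM1D, SESN1 and SESN2, in bases from the 5′ end, 1 row per list, with the coding part of the mRNA thick. CDKN1A and BBC3 peaks line up across lists, except that eIF3a replicate 2 lacks the coding peaks, whereas PPM1D peaks lie at different sites.

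Where the covered bases of 2 proteins did not overlap between replicates, an exact two-sided permutation test of 2 lists against 2 still cannot give a p below 0.333, so no difference could pass a threshold of 0.05. METTL16 and eIF3a did not overlap for 4 of 9 members, beside 37.1% of all genes with a peak in these lists: eIF3a covered more of MDM2, MDM4 and PPM1D (23.4% of all genes went this way), and METTL16 more of BAX (13.7%). METTL16 and eIF3b did not overlap for 4 of 9, beside 44.2%, and eIF3b covered more of all 4 (MDM2, MDM4, POLH and BBC3), as it did for 39.0% of all genes, with METTL16 covering more for 5.26%. eIF3a and eIF3b did not overlap for 3 of 9, beside 29.3%, with eIF3a covering more of PPM1D (6.48% of all genes) and eIF3b more of BAX and SESN1 (22.8%). These shares are near those of all genes.

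The mean number of MDM4 bases under peaks was 1249 in METTL16 (1535 and 963), 3220 in eIF3a (3489 and 2951) and 3277 in eIF3b (3126 and 3428). For MDM2 the lists gave 1262 and 782 bases in METTL16, 2520 and 2134 in eIF3a, and 2165 and 2794 in eIF3b. For POLH they gave 2552 and 813, 2706 and 2012, and 3180 and 2586 bases. METTL16 replicate 2 was the lowest list in all 3 genes.

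**Figure D4:**
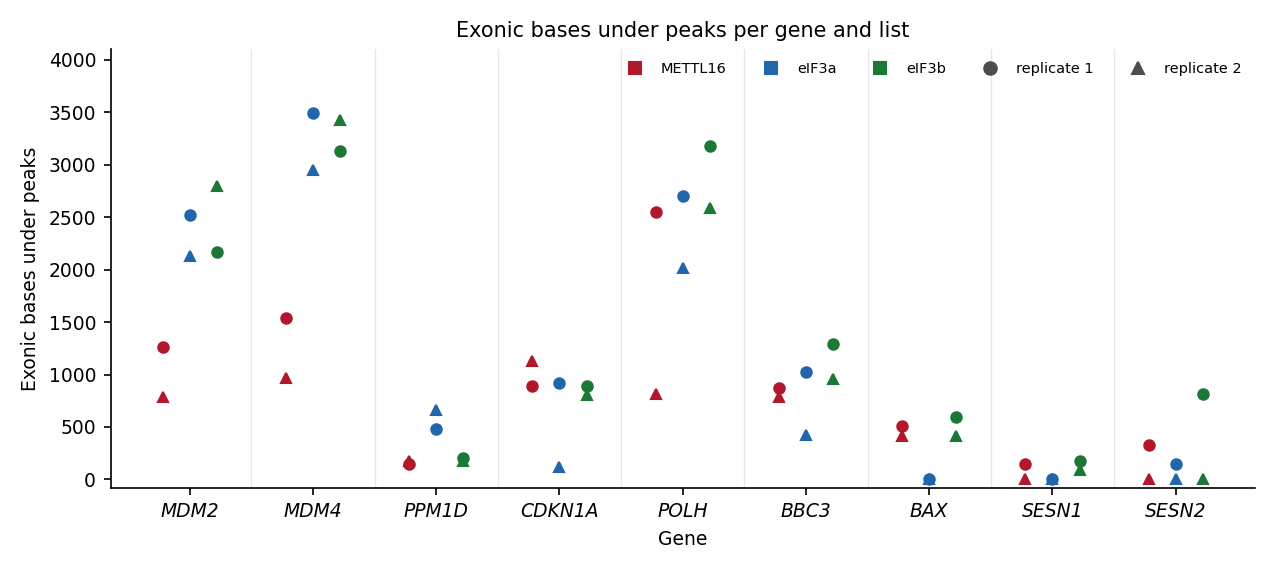
Exonic bases under peaks for each member in each of the 6 lists; colour gives the protein and shape the replicate. For MDM2 and MDM4 both METTL16 lists (782 to 1535 bases) lie below all 4 eIF3 lists (2134 to 3489 bases), and BAX is at 0 in both eIF3a lists.

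**Figure D5:**
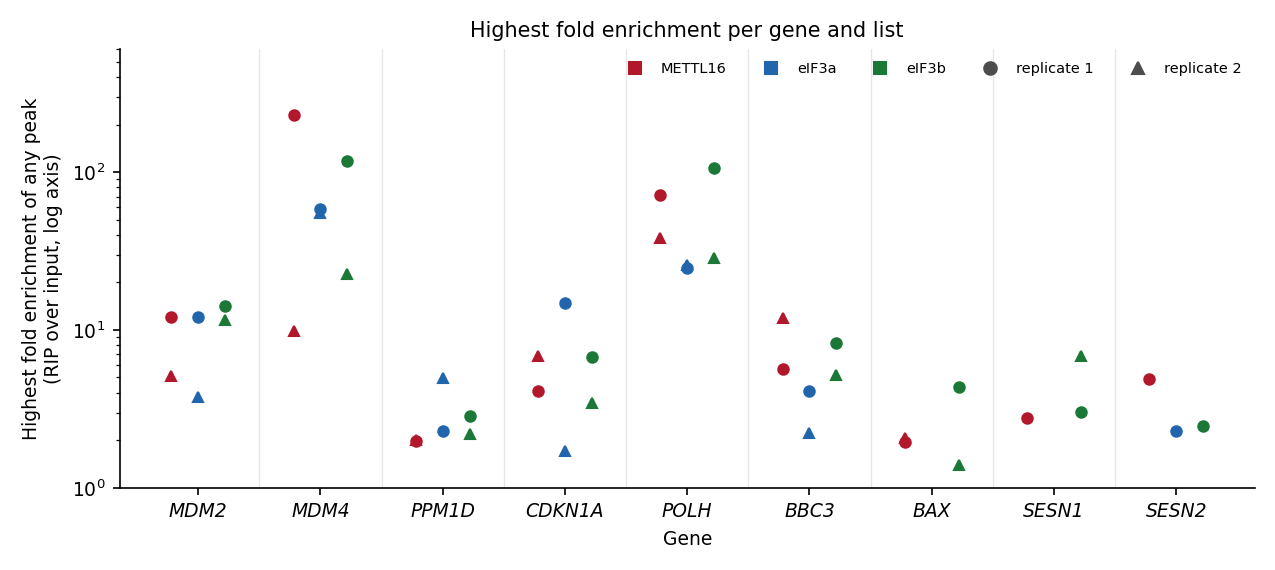
Highest fold enrichment of RIP over input among the peaks of each member in each list, on a log axis; lists without a peak have no point. MDM4 ranges from 9.79 to 230.0 and POLH from 24.8 to 106.0, while PPM1D stays between 1.99 and 4.97.

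Pooled over the members, 69.6% ± 0.285 of the peak bases of METTL16 lay in 3′ UTRs (mean ± SD, n = 2), 65.9% ± 0.856 of those of eIF3a and 66.7% ± 1.92 of those of eIF3b. Over all genes the values were 26.8% ± 6.01, 34.9% ± 1.13 and 30.05% ± 3.89. However, 3′ UTRs make up 66.9% of the members' own exonic bases with a region, against 49.4% for all genes with a peak, so the members' peaks held about as much 3′ UTR as their mRNAs do. With each member weighted equally the 3′ UTR share became 49.0% (METTL16), 57.5% (eIF3a) and 42.3% (eIF3b). ACAGAGA, the core of the U6 RNA site that METTL16 methylates, was searched on the transcript strand: 2 of 27 and 1 of 18 member peaks held it in METTL16, 3 of 34 and 2 of 31 in eIF3a, and 2 of 33 and 2 of 37 in eIF3b, while 3.27% to 5.36% of all peaks per list did. Save for a POLH peak in eIF3a replicate 1, these member peaks were all MDM4 3′ UTR peaks that recurred at the same sites across lists.

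A wider list of 53 p53 pathway genes held 26 bound by METTL16, 20 by eIF3a and 32 by eIF3b, and 13 genes had a peak in all 6 lists. Of the 49 list genes with a peak in any list these are 53.1%, 40.8%, 65.3% and 26.5%, beside 42.6%, 42.4%, 60.0% and 25.2% of all genes with a peak in any list. Of all 53 they are 49.1%, 37.7%, 60.4% and 24.5%, beside 22.9%, 22.8%, 32.2% and 13.6% of all 20046 annotated protein coding genes, which include genes that HepG2 cells may not express. Of 7 arrest genes 4 were bound by METTL16, 1 by eIF3a and 4 by eIF3b. The eIF3a count rests on replicate 2, since all 7 had a peak in eIF3a replicate 1 and 1 (CCNG1, named after its value was seen) in replicate 2. Among 14 apoptosis genes 6, 6 and 8 were bound. Of the 26 wider genes bound by METTL16, 0 lacked an eIF3 peak, and of all 4612 genes bound by METTL16, 98 (2.12%) did.

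Of the wider genes in all 6 lists, the highest by p-value were HIPK2, TRIM24, TNFRSF10B, HUWE1, EP300, CREBBP, ATM and AEN. HIPK2, a kinase that phosphorylates p53, had highest folds of 15.9 and 6.06 in METTL16, 8.57 and 15.5 in eIF3a, and 33.4 and 7.34 in eIF3b. ATM, the kinase that signals DNA breaks, had 46.4 and 16.7, 7.72 and 3.41, and 19.6 and 25.4, and was the only one of these 8 with an inverted pair in its 3′ UTR. COP1, PMAIP1, RCHY1 and XPC had no peak in any list.

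Of 11 paralogs of the members, 10 had a peak in any list, and of these METTL16 bound 3, eIF3a 4 and eIF3b 6, beside 42.6%, 42.4% and 60.0% of all genes with a peak. CDKN1B and BOK had a peak in all 6 lists, with highest folds of 2.35 to 8.34 and 1.73 to 6.91. PPM1G and REV1 had one in 5 lists, POLI, PPM1A and PPM1B in 3, POLK and BAK1 in 2 and SESN3 in 1, while CDKN1C had none. Among the polymerases related to POLH, METTL16 bound neither POLI, POLK nor REV1.

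The 5 genes whose highest folds over the 6 lists were nearest to those of POLH, among 2730 genes in all lists, were NOL9, NFIX, EVPL, GAS2L3 and FAM20B. Their Euclidean distances on the log2 scale were 0.87, 1.12, 1.15, 1.22 and 1.22. NOL9 had folds of 84.8 and 52.4 in METTL16, 33.9 and 19.6 in eIF3a, and 107.0 and 36.7 in eIF3b. NOL9, GAS2L3 and FAM20B had an inverted pair in the 3′ UTR, and NFIX and EVPL had none.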

How the data were processed

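RIP-seq was performed on HepG2 cells, with 2 RIP samples and 2 inputs per protein. Per the labels, rRNA-depleted RNA was made into stranded libraries. STAR alignment to GRCh38 and exomePeak peak calling against input, with default settings, were done by the authors. Versions, annotation and the input used for each list were not given in the sources used here. The deposited columns give a gene name, exonic blocks and their number, a p-value, its log10 and that of the adjusted p (a score here; largest adjusted p 0.0501). The authors also deposited the fold enrichment, the ratio of RIP to input that exomePeak computed for each peak. Values in the deposited lists were used to describe, rank or filter peaks. Inputs entered only through peak calling, and no counts were used, so depth is unknown.

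Block starts were read as 0-based and are printed 1-based. Of 10830 gene names, 10325 matched a GENCODE release 44 symbol, 466 an older symbol and 39 none. Regions follow the canonical transcript first. Exonic bases under peaks were merged per gene and list and compared between proteins by an exact two-sided permutation test over samples. RN7SL1 (299 bases, from the annotation's transcript sequences) was searched in exons and each canonical 3′ UTR against its own reverse complement with BLAST+ 2.17.0 (E at most 1e-05, word size 11, arms of at least 30 bases). Both searches were chosen after the peaks were seen. Some sequences are not reported here. Interval arithmetic was tested on simulated data. Python 3.11.15 was used. The methods call the replicates biological.

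The members and gene lists were chosen with earlier results of these data known. The text names all members and paralogs, the 8 wider genes in all lists with the smallest median rank by p-value, wider genes without a peak, and 5 genes most like POLH. Alternatives were a fold of at least 4, each list's top 5000 peaks by p-value, a single replicate sufficing, matching by position (50% of a peak's bases), scaling by list total, a replicate block, peak centres, equal weights, leaving out POLH and leaving out each replicate.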

Additional observations from a re-analysis of the deposited data

How the results depend on the processing

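Of the members, MDM4 and POLH stayed in all 6 lists with a fold of at least 4 (2 in place of 6), where eIF3a bound 2 members in place of 6 and eIF3b 4 in place of 8. With 5000 peaks per list eIF3b bound 5, and matching by position changed no count of members. In the wider list, METTL16, eIF3a and eIF3b bound 9, 4 and 15 genes at a fold of at least 4 and 17, 7 and 15 with 5000 peaks. With a peak in either replicate METTL16 and eIF3a each bound 41, and without one replicate the eIF3a count was 22 to 39, with 39 from replicate 1 alone.

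Members separated by covered bases fell to 1 for each pair of proteins at a fold of at least 4, and to 2 (METTL16 and eIF3b) and 0 (eIF3a and eIF3b) with 5000 peaks. Pairing same-numbered replicates as a replicate block gave 5 for METTL16 and eIF3a, 6 for METTL16 and eIF3b and 5 for eIF3a and eIF3b, but the numbers mark no shared culture in the labels. Leaving out 1 list gave 5 to 8 for METTL16 and eIF3b and 4 to 8 for eIF3a and eIF3b; a lone replicate is easier to separate.

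The 3′ UTR share of member peak bases in METTL16, eIF3a and eIF3b became 82.4%, 74.3% and 83.8% at a fold of at least 4, 49.0%, 57.5% and 42.3% with equal weights, and 59.9%, 60.8% and 56.0% without POLH. By peak centre it was 67.6% for METTL16 and 72.5% for eIF3a. With 2 replicates a small SD makes such moves easy to reach. Stricter thresholds leave fewer peaks; the cause of the other changes was not tested. With arms of at least 100 bases, an alternative chosen after seeing the data, the inverted bases under a peak averaged 98.9%, 49.8% and 62.7% in MDM2, MDM4 and POLH over the 6 lists, against 89.5%, 49.7% and 62.7%. Depth is unknown and limits all counts of absent peaks.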
